A study of Mus musculus with 141 samples.

Results

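The genes described here are 8 genes of ketone body metabolism and of the response to peroxisome proliferator-activated receptor alpha (PPAR-alpha): Bdh1, Oxct1, Cpt1a, Pdk4, Fgf21, Angptl4, Vnn1 and Plin2. They were chosen by name, with earlier results of these data known, and all 8 are among the 24423 genes in the files. Total RNA depleted of ribosomal RNA was sequenced from liver, lung and kidney of 47 Collaborative Cross strains, a panel of recombinant inbred mice, with 1 library per tissue and strain. Each strain was represented by 1 adult male of 8 to 12 weeks. All mice had the NTP 2000 diet and water freely and a cycle of 12 h light and 12 h dark. They also had 6 h per day of clean air in exposure chambers on weekdays over 2 weeks. All groups shared these conditions, and the labels do not give the fasting state. With 1 mouse per strain, strain and mouse cannot be told apart, and neither the hour of collection nor the time since the last meal is among the labels.

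In fasting, the liver turns fatty acids into ketone bodies, and other tissues burn them. PPAR-alpha is a nuclear receptor that is activated by fatty acids and raises the transcription of genes for fatty acid uptake, beta-oxidation and ketone body synthesis. Several of its targets also respond to other signals, such as glucocorticoids or the related receptors PPAR-delta and PPAR-gamma, and are expressed outside the liver.

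The liver libraries held between 1738046 and 42158454 counts, the lung libraries between 2829104 and 17585682, and the kidney libraries between 3046695 and 15028553. Levels of a gene are given as CPM (counts divided by library size) after TMM scaling (trimmed mean of M-values), which sets libraries level on the genes that differ least, and levels of different genes as TPM, which are also divided by transcript length. The tissues matched their labels by summed markers: the median sum of 8 hepatocyte genes was 105360 CPM in liver and at most 161 in the other two tissues, that of 6 lung epithelial genes was 10982 CPM in lung and at most 27.1, and that of 7 kidney tubule genes was 19287 CPM in kidney and at most 23.5. A large part of the counts went to Rn45s, the ribosomal RNA precursor, and Lars2. Together these genes took 0.34% to 90.3% of the counts of a liver library (median 43.2%), 1.02% to 90.5% in lung (24.1%) and 0.206% to 83.02% in kidney (32.3%). The TMM factor that multiplies the library size followed this share (rho of -0.974, -0.978 and -0.992 over 47 libraries) and ran from 0.13 to 1.13 in liver, from 0.25 to 2.63 in lung and from 0.35 to 1.91 in kidney, so an unscaled level depends largely on these genes. In bulk tissue, fewer cells of a type and less RNA per cell cannot be told apart.

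The 250 bases before the RefSeq start (GRCm38.p6) were available for 6 of the 8 genes, with 2 starts for Bdh1. They were searched on both strands for the DR1 element, a pair of AGGNCA letters with 1 base between them of the kind that PPAR-alpha binds, for the single copy AGGTCA, for TATAAA and for the E-box CACGTG. DR1 was in none of the 7 windows and in 0.338% of all 32851 promoters of the table. The promoters shown are the 3 that held any searched motif, in capitals, and their genes recur in the relations between mice described further on.
Cpt1a, chr19:3323051-3323300, forward strand: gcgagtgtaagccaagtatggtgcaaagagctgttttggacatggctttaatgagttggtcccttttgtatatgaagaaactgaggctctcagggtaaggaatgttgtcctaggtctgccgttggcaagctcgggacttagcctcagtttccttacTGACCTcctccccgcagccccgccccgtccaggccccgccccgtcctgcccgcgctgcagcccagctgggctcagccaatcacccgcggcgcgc
Plin2, chr4:86670060-86670309, reverse strand: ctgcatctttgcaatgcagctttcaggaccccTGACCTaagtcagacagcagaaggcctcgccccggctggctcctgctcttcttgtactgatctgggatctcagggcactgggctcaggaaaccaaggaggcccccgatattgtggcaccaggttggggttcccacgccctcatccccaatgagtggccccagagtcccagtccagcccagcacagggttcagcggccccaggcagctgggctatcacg
Fgf21, chr7:45615491-45615740, reverse strand: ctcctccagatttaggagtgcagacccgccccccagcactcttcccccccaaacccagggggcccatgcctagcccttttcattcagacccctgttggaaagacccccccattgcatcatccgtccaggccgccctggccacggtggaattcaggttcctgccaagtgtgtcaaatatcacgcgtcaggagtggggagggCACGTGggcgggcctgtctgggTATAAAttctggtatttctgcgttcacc
The capitals in Cpt1a and Plin2 mark the single copy on the opposite strand (TGACCT), which lay 94 and 218 bases before the start and which 14.02% of all promoters held. In Fgf21 they mark CACGTG (6.02% of all promoters) and TATAAA (12.4%). A match is a description of the letters and not a site of binding.

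The first comparison asks how the 3 tissues of a mouse differ. Bdh1 was highest in liver and Oxct1 in kidney. Angptl4 and Plin2 were higher in liver than in both other tissues, Cpt1a was lowest in lung, Pdk4 was lowest in liver and Vnn1 was highest in kidney. The fit (limma-voom with strain in the model) covered 12127 genes, and a gene was called at q ≤ 0.1 with a log2 fold change of at least 1 in either direction. In that fit 6 of the 7 tested genes were called between liver and lung (54.9% of all tested genes), 6 between liver and kidney (36.6%) and 4 between lung and kidney (46.3%). Fgf21 fell under the filter, which asked for over 1 CPM in 30% of libraries or more. The shares over all genes were large, so the counts say little about these genes as a group.

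**Figure D1:**
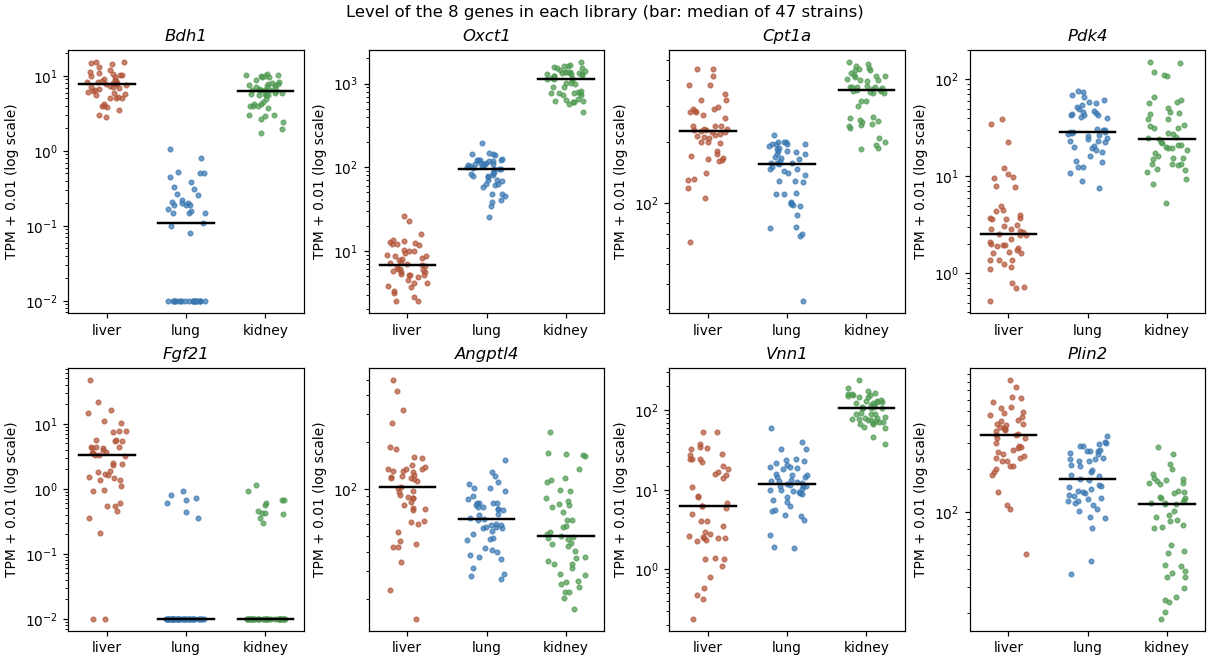
TPM of the 8 genes in each library, on a log scale with 0.01 added, by tissue; each dot is 1 strain and the bar is the median of 47 strains. Oxct1 and Vnn1 stand highest in kidney, Plin2 and Angptl4 in liver, and most lung and kidney libraries hold no Fgf21 read.

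Bdh1 (chr16:31422366-31458987, forward strand, NCBIM37) encodes the mitochondrial enzyme that interconverts acetoacetate and beta-hydroxybutyrate. In liver it ranged from 6.81 CPM in CC015 over a median of 14.1 to 24.4 in CC043, and in kidney from 1.95 in CC020 over 6.40 to 9.96 in CC024. In lung 41 of 47 libraries had at most 3 counts and 21 had none, with 75 counts in all. Bdh1 was higher in liver than in kidney in 47 of 47 mice, by 1.15 on the log2 scale (SE 0.08, q = 4.59e-25), although 20 kidney libraries lay above the lowest liver library. Over all libraries the CPM of Bdh1 was 134 times as high in liver as in lung with TMM (95% exact interval 107 to 170, counting error only) and 52.6 times without TMM (41.9 to 67.0), and the ranges did not overlap. The fitted log2 change of 7.02 against lung depends on the prior count.

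Oxct1 (chr15:3976383-4105344, forward strand) encodes succinyl-CoA:3-ketoacid CoA transferase, which commits ketone bodies to oxidation and is known to be low in hepatocytes. The liver libraries spanned 5.56 to 77.7 CPM (median 13.9), the lung libraries 39.3 to 126 (median 66.0) and the kidney libraries 718 to 1957 (median 1237). Kidney lay above lung and liver in 47 of 47 mice with no overlap, by 4.17 (SE 0.08, q = 1.63e-69) and 6.35 (SE 0.09, q = 4.42e-85) on the log2 scale. Lung exceeded liver by 2.18 on the log2 scale (SE 0.09, q = 8.33e-44) and in 45 of 47 mice. The liver library of CC033, highest for Oxct1, also had the highest sum of lung epithelial markers in liver, 180 CPM against a median of 27.1. It also had the lowest TMM factor in liver (0.13 against a median of 0.63), on which both of these CPM values rest. Over the liver libraries the rho of Oxct1 with that factor was -0.313. The part of the scaling, or of RNA from other tissue, in the Oxct1 level of CC033 was not tested.

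Other genes of ketone body metabolism also differed between tissues. Of 8 tested genes of the list, 7 were higher in liver (23.7% of all tested genes) and 1 in lung (31.2%) between those tissues. Between liver and kidney 3 were higher in liver and 2 in kidney, against the 36.6% of all genes called in either direction, and between lung and kidney 1 was higher in lung (24.6%) and 5 in kidney (21.7%). Hmgcll1, a lyase outside mitochondria, had 27 counts over the 47 liver libraries, of which 46 had at most 3, against 5526 counts in lung. The cytosolic dehydrogenase Bdh2 had 54 counts in lung, where 44 of 47 libraries had at most 3, against 2901 in kidney. The median TPM of Bdh2 was 14.7 in kidney, above that of Bdh1 (6.33), and 1.39 in liver, below that of Bdh1 (7.79).

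Cpt1a (chr19:3323301-3385732, forward strand) encodes the liver form of carnitine palmitoyltransferase 1, the entry step of long-chain fatty acids into mitochondria. Liver held 376 to 1026 CPM (median 595), lung 108 to 162 (median 132) and kidney 313 to 639 (median 477). Lung lay below both other tissues in every mouse and without overlap, by 2.16 against liver (SE 0.04, q = 2.02e-73) and 1.86 against kidney (SE 0.04, q = 3.58e-67) on the log2 scale. Liver exceeded kidney in 42 of 47 mice by only 0.31 (SE 0.04, q = 1.60e-11), under the fold threshold. On the TPM scale liver was above kidney in 7 of 47 mice, so the order of these 2 tissues depended on the scaling. Cpt1b, the muscle form, had a median TPM of 0.07 in liver, 0.81 in lung and 1.45 in kidney, against 224, 155 and 358 for Cpt1a.

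Pdk4 (chr6:5433351-5446309, reverse strand) encodes a kinase that inactivates pyruvate dehydrogenase and spares glucose. The liver libraries spanned 1.61 to 109 CPM (median 5.16), the lung libraries 7.31 to 82.6 (median 25.2) and the kidney libraries 9.02 to 178 (median 27.9). Liver was lower than lung by 1.70 (SE 0.19, q = 2.05e-14) and than kidney by 2.21 (SE 0.19, q = 4.38e-20) on the log2 scale, in 43 and 45 of 47 mice, and the ranges overlapped widely. Lung and kidney differed by 0.51 (SE 0.18, q = 0.00746), under the fold threshold, with lung higher in 16 mice. In liver the median TPM of Pdk4 (2.53) was below that of Pdk1 (38.02) and Pdk2 (40.6), which encode other kinases of the same complex, and in kidney Pdk3 (125) and Pdk2 (116) exceeded Pdk4 (24.03).

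Fgf21 (chr7:52869277-52870860, reverse strand) encodes a hormone that the liver secretes in fasting and other metabolic stress. In liver it ranged from 0 to 24.9 CPM (median 1.61), with 9 of 47 libraries at 3 counts or fewer and CC030 highest. In lung all 47 libraries, and in kidney 46 of 47, had at most 3 counts. Summed over libraries Fgf21 had 963 counts in liver, 9 in lung and 19 in kidney, and over all libraries the CPM was 230.1 times as high in liver as in lung with TMM (95% exact interval 121 to 505) and 90.4 times without TMM (47.4 to 198). Against kidney it was 75.1 times as high with TMM (47.8 to 125) and 40.6 times without (25.9 to 67.7). These intervals cover counting error only. Liver was above lung in 45 of 47 mice and above kidney in 45. Klb, which encodes the co-receptor of FGF21, was higher in liver than in lung by 6.53 (SE 0.11, q = 7.82e-77) and than in kidney by 6.31 (SE 0.11, q = 1.72e-74). Klb was low outside liver, with at most 3 counts in 9 lung and 16 kidney libraries. Over all libraries its CPM was 97.3 times as high in liver as in lung with TMM and 38.2 times without. Against kidney it was 75.2 times as high with TMM and 40.7 times without.

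Angptl4 (chr17:33910695-33918520, reverse strand) encodes a secreted inhibitor of lipoprotein lipase. Liver held 28.8 to 491 CPM (median 116), lung 12.5 to 56.5 (median 26.9) and kidney 12.5 to 136 (median 35.1). In each of the 47 mice liver was above lung and above kidney, by 2.13 (SE 0.10, q = 1.41e-38) and 1.72 (SE 0.10, q = 2.86e-31) on the log2 scale, although the ranges overlapped. Lung and kidney differed by 0.41 (SE 0.10, q = 7.98e-05), under the fold threshold. Its relative Angptl8, which acts on the same lipase, had a median TPM of 118 in liver, against 104 for Angptl4.

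Vnn1 (chr10:23614494-23625149, forward strand) encodes pantetheinase, which recycles the pantothenate of coenzyme A. The liver libraries spanned 0.369 to 77.4 CPM (median 9.50), the lung libraries 1.26 to 28.9 (median 5.71) and the kidney libraries 39.6 to 179 (median 86.4). Kidney was above lung in every mouse without overlap, by 3.62 (SE 0.17, q = 3.16e-38), and above liver in every mouse by 2.74 (SE 0.17, q = 5.22e-29) on the log2 scale. Liver and lung differed by 0.89 (SE 0.17, q = 1.27e-06), under the fold threshold, with liver higher in 28 of 47 mice. The neighbouring gene Vnn3 had the opposite distribution, with a median TPM of 32.8 in liver, 8.57 in lung and 0.25 in kidney. No 50-base window of the Vnn1 or Vnn3 transcript that was found in NCBIM37 occurred there more than 1 time.

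Plin2 (chr4:86294290-86315964, reverse strand) encodes perilipin 2, a coat protein of lipid droplets. Liver held 139 to 884 CPM (median 373), lung 44.6 to 111 (median 72.9) and kidney 11.9 to 144 (median 67.7). Liver was above lung in 47 of 47 mice without overlap, by 2.39 (SE 0.13, q = 6.59e-32), and above kidney in 47 of 47 mice by 2.71 (SE 0.13, q = 9.42e-36) on the log2 scale, with 1 kidney library above the lowest liver library. Lung and kidney differed by 0.32 (SE 0.14, q = 0.0232) with lung higher in 24 mice. Of the Plin2 windows found in NCBIM37, 15.5% occurred more than 1 time, and reads from those windows are not counted as unique.

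**Figure D2:**
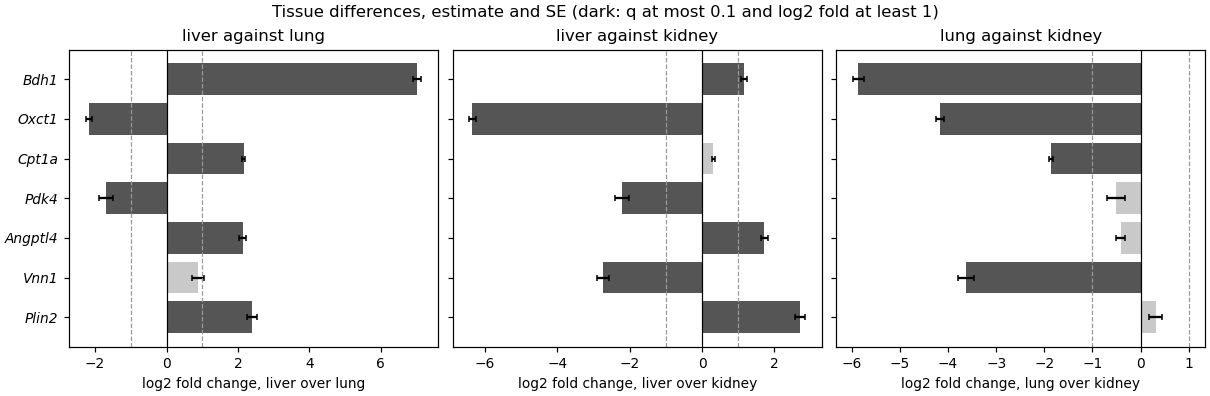
Log2 fold changes of the 7 tested genes between tissues, with SE, from the fit over 12127 genes; dark bars were called and dashed lines mark a log2 change of 1 in either direction. Oxct1 changes most against kidney (-6.35 for liver over kidney) and Bdh1 most against lung.

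These directions rest on TMM scaling. Scaling by total counts moved the median change of all genes from -0.07 to -1.43 between liver and lung, from -0.07 to -0.95 between liver and kidney and from -0.02 to 0.46 between lung and kidney. With it, and on TPM, the sign turned for 4 differences under the fold threshold: Vnn1 between liver and lung, Cpt1a between liver and kidney, and Pdk4 and Angptl4 between lung and kidney. The calls of Cpt1a and Angptl4 between liver and lung, and of Bdh1 and Angptl4 between liver and kidney, kept their sign and fell under the fold threshold, at 0.82, 0.77, 0.36 and 0.87 on the log2 scale with total counts. Plin2 between liver and lung fell under it on TPM only, at 0.91 with log2(TPM + 1) and 0.92 with log2(TPM + 0.1). With total counts that left out Rn45s and Lars2, a scaling added after seeing the data, the same 4 calls fell under the threshold, Cpt1a at 0.9999. On the TPM scale Bdh1 was above kidney in liver in 31 of 47 mice.

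Over a wider list of 56 genes known as PPAR-alpha targets, without the 8, 52 were tested. Between liver and lung 36 were higher in liver (23.7% of all tested genes) and 12 in lung (31.2%). The median log2 change was 2.60, against -0.07 over all genes. Between lung and kidney 6 were higher in lung (24.6%) and 35 in kidney (21.7%), with a median of -1.47 against -0.02. Between liver and kidney 17 were higher in liver and 15 in kidney (median 0.17, against -0.07), where 36.6% of all genes were called in either direction. Large changes of the list included Fabp1, a liver fatty acid binding protein, at 10.80 between liver and kidney (SE 0.15, q = 5.59e-84). The transcription factor Creb3l3 changed by 9.60 between liver and lung (SE 0.10, q = 2.25e-94). Slc27a2, a very long-chain acyl-CoA synthetase, changed by -9.24 between lung and kidney (SE 0.09, q = 1.18e-99). Ppara itself was higher in liver than in kidney by 1.43 (SE 0.15, q = 6.83e-16). In lung 40 of 47 libraries had at most 3 Ppara counts, and over all libraries its CPM was 51.1 times as high in liver as in lung with TMM (95% exact interval 40.3 to 65.7, counting error only) and 20.1 times without TMM (15.8 to 25.8).

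The second comparison asks in which tissue strains differ most. Vnn1 was the most variable of the genes in liver, and Plin2 was more variable in kidney than elsewhere. The SD of log2 CPM over 47 strains was tested with a Pitman-Morgan test over the 12127 genes. Between liver and lung 6 of the 7 genes had the wider spread in liver, against 53.0% of all genes, and Bdh1 had the wider spread in lung (6.82% of all genes), where counting error alone could give all of its variance. Liver was wider than kidney for Oxct1, Cpt1a and Vnn1 (42.9% of all genes), and kidney was wider than liver for Plin2 (7.08%). Between lung and kidney, kidney was wider for Cpt1a, Pdk4, Angptl4 and Plin2 (24.6%) and lung for Bdh1 and Vnn1 (10.5%).

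Vnn1 had an SD of 1.89 in liver, 0.85 in lung and 0.44 in kidney, and liver against kidney differed at q = 6.27e-16 (p = 1e-05 over 100000 swaps of tissues within mice, the smallest they can give). Counting error made up 3.76% of its variance in liver, and the SD in liver stood at percentile 98.9 of the genes with a median of at least 10 counts. Its 47 liver libraries had the widest step between neighbouring strains with at least 5 strains on either side, from 11.4 to 19.3 CPM, with 28 strains below and 19 above; the step was chosen after the values were seen.

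Plin2 had an SD of 0.998 in kidney, 0.56 in liver and 0.37 in lung, and kidney differed from lung at q = 8.91e-09 and from liver at q = 0.000719. In kidney 13 strains lay between 11.9 and 29.97 CPM, and the other 34 between 41.8 and 144. This split is at the widest step of Plin2 in kidney with at least 5 strains on either side. It was also chosen after the values were seen. Cpt1a varied least, with an SD of 0.13 in lung, at percentile 0.503. Pdk4 varied strongly in each tissue, with SD of 1.28 in liver, 0.78 in lung and 1.06 in kidney, and liver and kidney did not differ by this test (q = 0.277).

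**Figure D3:**
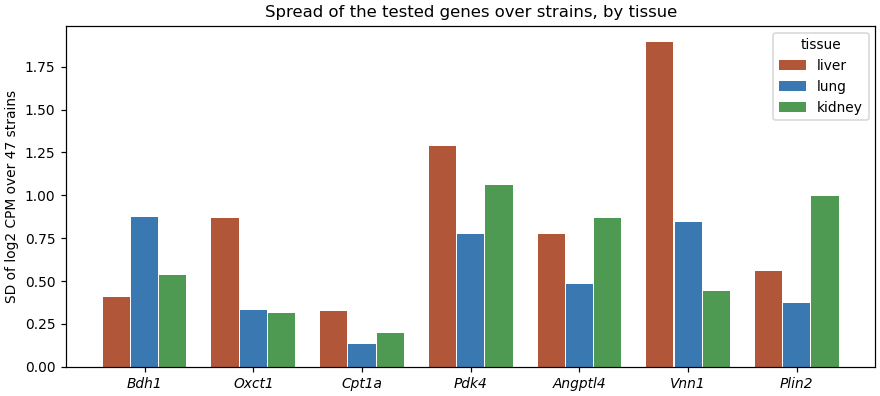
SD of log2 CPM over the 47 strains for the 7 tested genes in liver, lung and kidney. Vnn1 falls from 1.89 in liver to 0.44 in kidney, while Plin2 is highest in kidney at 0.998.

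The third comparison asks whether a mouse high for a gene in 1 tissue was also high in another. Angptl4 was, in all 3 tissue pairs, whereas Plin2 in lung and kidney went in opposite directions. Over the 47 strains 19 relations of a gene with itself between tissues were computed, with q adjusted over all genes that passed the TPM filter in both tissues. Of these, 8 were called: 3 between liver and lung (13.5% of all genes), 2 between liver and kidney (23.6%) and 3 between lung and kidney (17.5%). The 1 negative call was between lung and kidney (0.438% of all genes were negative there). The 11 others had r from -0.13 to 0.27.

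For Angptl4, CC021, CC015 and CC055 were the 3 highest mice in liver, at 491, 455 and 323 CPM, and the 3 highest in kidney, at 125, 136 and 134. In lung CC055 and CC015 were highest (56.5 and 56.2 CPM) and CC021 had 39.4. The lung libraries of CC015 and CC055 stand apart, with the 2 lowest TMM factors in lung (0.25 and 0.44) and the 2 highest shares of Rn45s and Lars2 (90.5% and 83.3%), and their deposited TPM of Angptl4 (35.8 and 57.3) lay below the lung median of 64.55. CC017 was lowest in lung and kidney. These strains were singled out after their values were seen. Pearson's r of rank inverse normal values was 0.595 for liver with lung (q = 0.000684, permutation p = 3e-05) and rho was 0.482 (permutation p = 0.00073). For liver with kidney r was 0.544 (q = 0.00193, permutation p = 0.0001) and rho 0.447 (permutation p = 0.00179). For lung with kidney r was 0.595 (q = 0.000483, permutation p = 1e-05, the smallest that the permutations can give) and rho 0.496 (permutation p = 0.00038). Leaving out the 2 mice farthest from the median in the first-named tissue gave r of 0.523, 0.448 and 0.497. Mice extreme in the second tissue alone were kept. Without CC015, CC021 and CC055 it was 0.470, 0.410 and 0.458, with q of 0.0221, 0.0441 and 0.0227. With TPM without TMM only liver with kidney was called (r = 0.549, q = 0.00343), and r was 0.224 for liver with lung (q = 0.743) and 0.297 for lung with kidney (q = 0.326). With TPM rescaled without Rn45s and Lars2 all 3 were called, at r of 0.554, 0.505 and 0.588, and given the TMM factor of each tissue at 0.579, 0.527 and 0.600; both were added after seeing the data.

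Plin2 behaved otherwise. In lung CC062 and CC057 were highest (111 and 110 CPM), and CC055, at 44.8 CPM second lowest in lung, was highest in kidney at 144 CPM. The lung library of CC055 is 1 of the 2 that stand apart, with a TMM factor of 0.44. Between lung and kidney r was -0.423 (permutation p = 0.00305, q = 0.0296, rho = -0.395 with permutation p = 0.00609), and 0.169% of all genes had a lower r. It was -0.410 when the 2 mice farthest from the median in lung were left out, and no single strain's omission ended the call (highest q 0.0743). Without CC015, CC021 and CC055 r was -0.360, with q of 0.0987 just under the threshold. With TPM without TMM the relation was not called (r = -0.197, q = 0.602), and with TPM rescaled without Rn45s and Lars2 it was (r = -0.413, q = 0.0338). Plin2 in liver was related to neither (r = -0.125 with lung, q = 0.667, and 0.117 with kidney, q = 0.621).

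Vnn1 was positively related between liver and lung (r = 0.580, permutation p = 4e-05, q = 0.00114, rho = 0.627 with permutation p = 2e-05, r = 0.595 without the 2 farthest strains), but its r with kidney was 0.200 for liver (q = 0.361) and -0.111 for lung (q = 0.683). Cpt1a was related in liver and kidney (r = 0.518, q = 0.00354, permutation p = 0.00018, rho = 0.491 with permutation p = 0.00058, r = 0.518 without the 2 farthest strains). Between liver and lung Cpt1a had r = 0.394 (permutation p = 0.0062, q = 0.0603, rho = 0.362 with permutation p = 0.0132, 0.364 without the 2 farthest), a call that ended without CC013, CC046 or CC055 (highest q 0.138). Pdk4 was related between lung and kidney (r = 0.512, permutation p = 0.00022, q = 0.00489, rho = 0.436 with permutation p = 0.00205, 0.428 without the 2 farthest). With TPM without TMM only the relation of Vnn1 kept its call among these, and with TPM rescaled without Rn45s and Lars2 all of them did. Differences between these correlations were not tested.

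**Figure D4:**
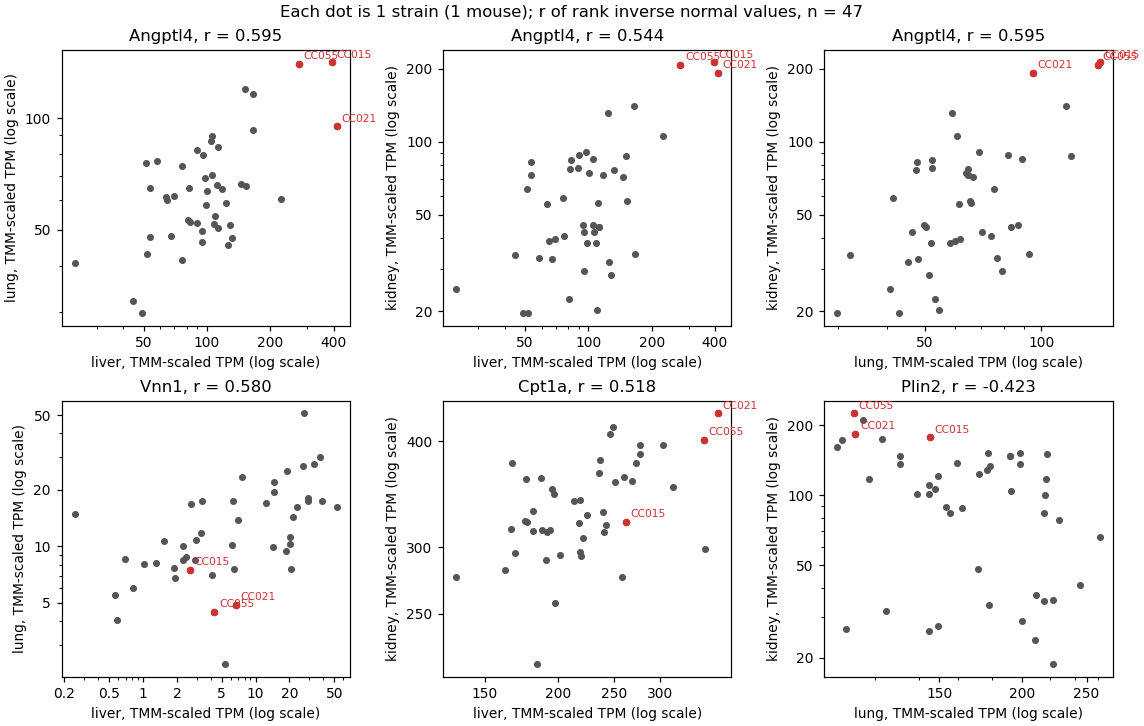
TMM-scaled TPM of Angptl4, Vnn1, Cpt1a and Plin2 in 2 tissues of the same mouse, on log scales; each dot is 1 strain and CC015, CC021 and CC055 are in red. Angptl4 is high together in all 3 pairs, and Plin2 in kidney is lower in mice with more Plin2 in lung (r = -0.423).

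The last comparison asks which of the genes varied together within a tissue. Plin2 was related to Pdk4 and Fgf21 in liver, and Angptl4 to Pdk4 and Vnn1 in kidney. Of 64 pairs, 28 in liver, 15 in lung and 21 in kidney, 6 were called with q adjusted over all pairs of these genes with any gene past the filter, and all 6 were positive. Of these, 3 were in liver (0.393% of all such pairs), 3 in kidney (1.35%) and 0 in lung (0.351%), where 3 of 15 pairs had an unadjusted permutation p under 0.05, 0 were called with Spearman's rho and 1 with log2(TPM + 1), and the strongest was Pdk4 with Angptl4 (r = 0.461, permutation p = 0.00104, q = 0.142).

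In liver Fgf21 with Plin2 had r = 0.532 (permutation p = 8e-05, q = 0.0547, rho = 0.572 with permutation p = 6e-05, 0.560 without the 2 farthest strains). All 47 liver libraries were ranked for it, although 9 had at most 3 Fgf21 counts and the median was 9 counts. The other called pairs were Cpt1a with Angptl4 (r = 0.509, permutation p = 0.00027, q = 0.0753, rho = 0.432 with permutation p = 0.00285, 0.449 without the 2 farthest) and Pdk4 with Plin2 (r = 0.503, permutation p = 0.00042, q = 0.0807, rho = 0.493 with permutation p = 0.00057, 0.469 without the 2 farthest). Without CC015, CC021 and CC055 none of the 3 kept its call, at r of 0.526, 0.360 and 0.384 and q of 0.135, 0.428 and 0.382. The call of Cpt1a with Angptl4 ended without any of CC015, CC021, CC036, CC046 and CC055, and that of Pdk4 with Plin2 without any of CC015, CC020, CC021, CC033, CC035, CC041 and CC055.

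In kidney the called pairs were Angptl4 with Vnn1 (r = 0.541, permutation p = 0.00011, q = 0.0181, rho = 0.512 with permutation p = 0.00034, 0.445 without the 2 farthest, where q was 0.115), Pdk4 with Angptl4 (r = 0.513, permutation p = 0.00026, q = 0.0313, rho = 0.511 with permutation p = 0.00027, 0.492 without the 2 farthest) and Vnn1 with Plin2 (r = 0.454, permutation p = 0.00123, q = 0.0796, rho = 0.367 with permutation p = 0.0111, 0.347 without the 2 farthest, where q was 0.314). Without CC015, CC021 and CC055 only Angptl4 with Vnn1 kept its call (r = 0.508, q = 0.0435), and without the 2 strains farthest in 1 of the pair only Pdk4 with Angptl4 did (q = 0.0591). Vnn1 with Plin2 lost its call without any of 9 strains, CC012, CC013, CC015, CC028, CC032, CC036, CC045, CC055 and CC061.

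**Figure D5:**
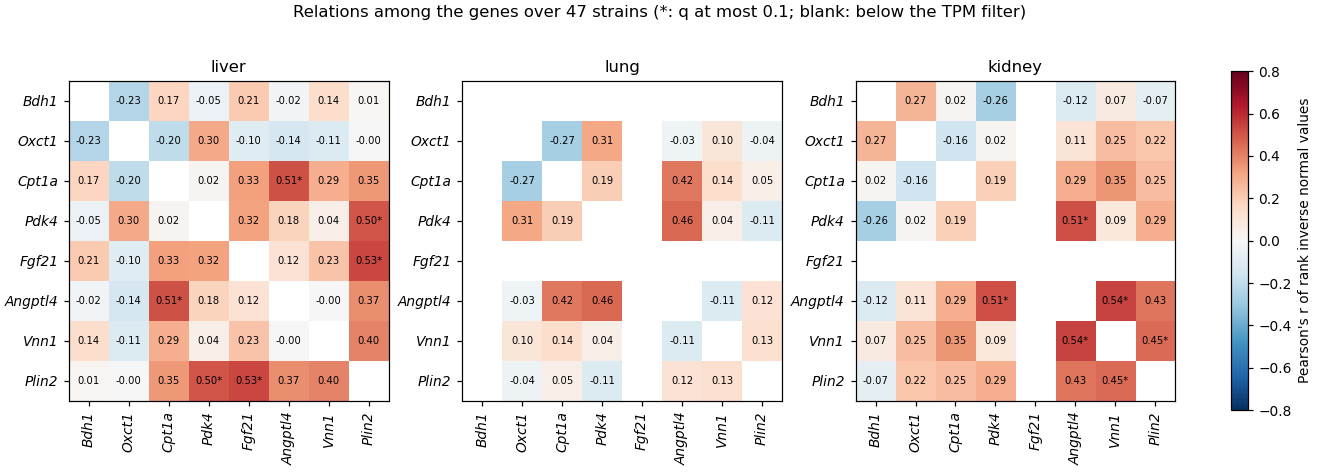
Pearson's r of rank inverse normal values between the genes over the 47 strains in liver, lung and kidney; a star marks q of at most 0.1 and blank cells are genes under the TPM filter. The 6 stars are 3 pairs in liver and 3 in kidney.

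The 3 genes with the highest r with Angptl4 were not the same in the 3 tissues, and a difference between tissues was not tested. In lung the 3 with the highest r were Fkbp5 (0.639, q = 0.0066), Zbtb16 (0.636, q = 0.00691) and Klf9 (0.627, q = 0.00911), all known glucocorticoid-induced genes, and 4 of 8 genes of a glucocorticoid list were positively related, against 0.291% of all genes. In liver the highest was Tsc22d3, a glucocorticoid-induced leucine zipper protein of the same list (0.728, q = 0.000477). Next came the kinase Pim3 (0.718, q = 0.000477) and the mitochondrial folate carrier Slc25a32 (0.694, q = 0.00151). Angptl4 in liver was also related to 11 of 46 PPAR-alpha targets (1.2% of all genes), among them the transcription factor Creb3l3 (0.677, q = 0.00256) and the carnitine carrier Slc25a20 (0.661, q = 0.00444). In kidney 7 of 49 were (0.446%), led by Slc25a20 (0.593, q = 0.00504). Counts of the glucocorticoid list in liver and kidney, and of the PPAR-alpha targets in lung, are not reported here.

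In liver 6 of 46 targets were positively related to Plin2 (0.467% of all genes) and 5 to Cpt1a (0.5%), whose nearest gene was the cytochrome P450 Cyp2e1 (0.608, q = 0.0144). In kidney the nearest gene to Plin2 was Cpt2, the inner-membrane partner of Cpt1a (0.593, q = 0.00504), and that to Vnn1 was the peroxisomal thiolase Acaa1b (0.650, q = 0.00161), with 4 of 49 targets positively related to Vnn1 (0.316% of all genes). Vnn3 was nearest to Vnn1 in liver (0.644, q = 0.00672) and lung (0.791, q = 2.81e-06).

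Pdk4 stood near genes of muscle and fat. Its nearest genes in liver were Pgam2 (0.643, q = 0.00672) and Tnnc2 (0.593, q = 0.0192), both known from skeletal muscle, and in lung Xirp1 (0.6999, q = 0.00162), Trim63 (0.684, q = 0.00221) and Hrc (0.683, q = 0.00221), known from striated muscle. In kidney they were Fabp4 (0.726, q = 0.00013), a fatty acid binding protein of adipocytes, Acacb (0.724, q = 0.00013) and Slc36a2 (0.704, q = 0.000263). In kidney 8 of 12 genes of a feeding list were positively related to Pdk4 (0.594% of all genes), and these 8, Fasn, Acaca, Acacb, Acly, Scd1, Elovl6, Pnpla3 and Thrsp, are known for lipid synthesis. Over strains the rho of Pdk4 with the summed brown adipocyte markers was 0.685 in kidney, 0.640 in lung and 0.417 in liver, and with the skeletal muscle markers 0.533 in liver and 0.532 in lung, given as a description over 47 libraries that each hold both measures. The brown adipocyte sum (6 genes, 0 of them with a median of 3 counts or fewer in kidney, 1 in lung) ranged from 5.36 to 617 CPM in kidney and from 4.69 to 133 in lung. In liver, where 4 of the 6 genes had a median of 3 counts or fewer, it ranged from 12.6 to 588 CPM (median 187), and the rho of Pdk4 with the hepatocyte sum was -0.468. Elovl3 made up most of this liver sum, with a mean of 192 CPM in liver against 0.284 in lung. Each of the other genes of the list had a mean of at most 2.10 CPM in liver. The liver rho of 0.417 therefore rests largely on Elovl3. The skeletal muscle sum (5 genes, 3 of them with a median of 3 counts or fewer in liver, 1 in lung) ranged from 0 to 1217 CPM in liver and from 2.70 to 313 in lung. CC059 had the highest Pdk4 in kidney (178 CPM) and the highest brown adipocyte sum there, where the median sum was 33.6 CPM. CC031 had the highest Pdk4 in liver (109 CPM) and the highest skeletal muscle sum there, where the median sum was 2.79 CPM. The part of muscle or fat cells in the Pdk4 relations was not tested. For Angptl4 the rho with the brown adipocyte sum was between 0.069 in liver and 0.136 in kidney. A separate adipocyte sum covered 10 markers, of which 7 had a median of 3 counts or fewer in liver. For kidney and for lung this held for 4 of them. With this sum the rho of Pdk4 was 0.499 in kidney, 0.384 in lung and -0.036 in liver. That of Angptl4 was 0.214, -0.048 and 0.131, with the tissues in the same order.

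For Oxct1 the nearest gene in lung was Pdha1, a subunit of pyruvate dehydrogenase (0.635, q = 0.00691), and in kidney the glycolytic enzyme Pgk1 (0.779, q = 8.33e-06). Oxct1 in lung had a rho of 0.559 with the brown adipocyte sum and 0.520 with the cardiac muscle sum, whose part was not tested. Bdh1 in kidney was nearest to Ttc36 (0.730, q = 0.00013), and in liver it was related to Ppara (0.496, q = 0.0861).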

How the data were processed

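Liver, lung and kidney of 47 strains were sequenced (1 library each, 50-base single-end reads, RNA integrity of at least 7). The authors aligned reads with STAR 2.5.3a to a pseudo-genome per strain (Build37, mm9) and quantified uniquely aligned reads with RSEM. The expected counts the authors deposited were rounded before use (25 values were not whole), and the TPM deposited by the authors scale them by length and library. The FPKM values the authors deposited come from the same RSEM output and were not used. Groups are the tissues in the labels. The tissues of a strain come from 1 mouse, per the study's methods, so strain is in the fit as a block (median r of deviations 0.167 to 0.212 for same strains). No batch is among the labels, although the study's methods name sequencing batches and put them in its models. Batch is therefore in no fit or correlation here, and its part in the relations between libraries was not tested.

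Counts were scaled by TMM (edgeR 4.0.16) and tested with limma-voom (limma 3.58.1, R 4.3.3) for genes over 1 CPM in at least 30% of libraries, with Benjamini-Hochberg adjustment over all genes. The study states q of 0.1 and of 0.01, and 0.1 was used. For correlations, TMM-normalized TPM were turned into normal scores by rank (Blom, offset 0.375) for genes over 1 TPM in more than 50% of a tissue's libraries, with 100000 two-sided permutations. Where the 2 strains farthest from the median were left out, the distance was taken in the first-named tissue or gene only. The spread over strains was taken on log2 CPM (prior count 1). The fits were tested on simulated data. Libraries at or under 3 counts of a gene are stated as poorly resolved, but they were kept in the fits and correlations. Depth limits low genes, and intervals cover counting error only. Gene positions are from GENCODE vM1 on NCBIM37, and promoters from RefSeq, GRCm38.p6. Named genes are the 8 genes, the 3 most alike per gene and tissue, up to 3 of each list by change or r, and relatives; some genes of the lists are not reported here. The genes, lists and rules were chosen with earlier results of these data known. Alternatives (tests of edgeR and DESeq2 1.42.0, scaling, pseudocounts, filters, the block, strains left out) are given in the closing section. Figures and correlations were made in Python 3.11.15 (scipy 1.17.1, numpy 2.4.6).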

Additional observations from a re-analysis of the deposited data

How the results depend on the processing

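The tissue calls of the 7 tested genes stayed within 1.5 times under 36 of 39 alternatives. With log2(TPM + 1) or log2(TPM + 0.1), 3 were called between liver and lung, and with no minimum fold 7 between lung and kidney. With no replicate block the counts were 6, 6 and 4, as in the fit with strain as a block. The sign turned under total counts, log2(TPM + 1) and log2(TPM + 0.1), in this order, for Vnn1 between liver and lung (-0.70, -0.69, -0.91), for Cpt1a between liver and kidney (-0.56, -0.58, -0.58), and between lung and kidney for Pdk4 (0.015, 0.10, 0.11) and Angptl4 (0.10, 0.19, 0.20); the scaling of all genes moves these. With total counts without Rn45s and Lars2 it turned for Vnn1 between liver and lung (-0.29) and Cpt1a between liver and kidney (-0.45). With TPM without TMM the genes called positive between tissues were 1, 1 and 0 (1.5%, 15.1% and 4.05% of all genes), r of Cpt1a between liver and lung was -0.12, and within tissues 19 pairs in liver, 15 in lung and 18 in kidney were called (59.2%, 89.0% and 64.6% of all pairs). The liver pairs fell from 3 to 1 with Spearman's rho, with no TPM filter, without the 2 strains farthest from the median and without CC032 and CC042, and to 0 without CC015, CC021 and CC055. Cpt1a with Angptl4 in liver was not called with TPM rescaled without Rn45s and Lars2 (q = 0.229) or given the TMM factor (q = 0.107), nor Vnn1 with Plin2 in kidney with the former (q = 0.134). Lung had 1 called pair with log2(TPM + 1), log2(TPM + 0.1) or the rescaled TPM, and kidney 1 without CC015, CC021 and CC055, strains chosen after seeing the data. The spread of Bdh1 on log2(TPM + 1) was wider in liver than lung by 0.13 and wider in kidney than lung by 0.22 (value -0.22 for lung minus kidney), the opposite of log2 CPM. Counts limit Bdh1 in lung and Fgf21 outside liver. The cause of the other changes was not tested.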

Other observations

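Of the genes of a circadian clock list, at most 2 were related to any of these genes in a tissue. In liver 1 of 9, Dbp, a transcription factor of the clock output, was negatively related to Pdk4 (r = -0.652, q = 0.00552, against 0.189% of all genes) and to Plin2 (r = -0.540, q = 0.0475, against 0.1%). In kidney 2 of 11 were positively related to Cpt1a (0.891% of all genes), Per2 (r = 0.495, q = 0.0434) and Cry2 (r = 0.449, q = 0.0848), and 2 of 11 to Angptl4 (0.446%), Per2 (r = 0.457, q = 0.0766) and Nfil3 (r = 0.450, q = 0.0839). Gluconeogenic genes stood beside Cpt1a in kidney, with r of 0.549 for G6pc (q = 0.0156) and 0.521 for Pck1 (q = 0.0267), and beside Angptl4 in liver, with r of 0.524 for Pck1 (q = 0.0596). The hour of collection is not among the labels, and its part in these relations was not tested.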
